A study of Mus musculus with 47 samples.

Results

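The cerebral cortex of R6/2(300Q) transgenic mice was set against that of wild-type mice, neither given the drug of the study. Across 12052 genes tested, 614 differed between the genotypes. A few developmental transcription factors, led by Hoxb5 and Twist1, were higher in transgenic cortex, as were 11 of 36 genes induced by interferon or presenting antigen. Of 40 astrocyte genes 23 were lower, as were 7 of 17 genes of upper-layer neurons, 4 of 15 of excitatory neurons, 5 of 21 for neuropeptides and 4 of 20 for cholesterol synthesis. Over all genes tested 1.58% were higher and 3.52% lower. The gene lists were chosen with earlier results of these data known. No gene of the lists for oligodendrocytes, microglia, the respiratory chain and the proteasome passed the test.

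The comparison used 8 of the 47 arrays of the study, 4 of transgenic and 4 of wild-type control cortex, chosen by their sample titles alone. All mice were on a CBA x C57BL/6 background, and both groups held 2 females (replicates 1 and 2) and 2 males (replicates 3 and 4). In the study, 4b, an inhibitor of histone deacetylases, replaced drinking water at 1 mg/ml for 67 days from 4 months of age. The control arrays carry no 4b, and the labels give no age or vehicle for them. The other 39 arrays came from 4b-treated cortex, from striatum and from cerebellum. Those of 4b-treated cortex also entered the filter and the estimate of the spread. Replicates are numbered in the titles with no word on separate animals, and the p-values rest on the spread among the arrays as given. Total RNA was taken from bulk tissue, in which fewer cells of a type and less RNA per cell cannot be told apart.

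Huntington's disease is caused by an expanded run of glutamines near the start of huntingtin. R6/2 mice carry the first part of the human gene with such a run as a transgene in addition to their own Htt genes, and they develop nuclear inclusions, loss of movement control and early death. They model the effects of the mutant fragment rather than of the full-length protein. The array probes read mouse transcripts. Mouse Htt was at 8.85, 8.96, 8.52 and 8.5 on the transgenic arrays and at 8.52, 8.71, 8.51 and 8.62 on the wild-type arrays, on the log2 scale used for all levels below. The groups overlapped, and the difference of 0.12 did not pass (limma, Benjamini-Hochberg adjusted p = 0.65), which says nothing about the transgene itself.

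The dissections matched their label. Tbr1, a transcription factor of cortical projection neurons, averaged 11.54 ± 0.17 in wild-type cortex, 7.73 ± 0.59 in striatum and 6.80 ± 0.23 in cerebellum (SD, n = 4, 4 and 3 arrays). Slc17a7, the vesicular glutamate transporter of cortical neurons, averaged 13.67 ± 0.12, 9.79 ± 0.97 and 12.01 ± 0.88 in the same order. Median raw intensities of the 8 arrays lay between 128.6 and 166.7, and precision is limited by there being 4 arrays a group. Pairs of arrays within a genotype correlated at 0.988 to 0.994 over the genes tested and pairs across genotypes at 0.983 to 0.991.

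Of the 12052 genes, 614 (5.09%) passed at an adjusted p under 0.05, with 190 (1.58%) higher and 424 (3.52%) lower in transgenic cortex (limma, Benjamini-Hochberg). Of all differences 52.5% were positive, and the list counts below are to be read against these shares. Most differences were small. The median fold was 1.33 for genes that rose and 1.42 for genes that fell, and 13 rose and 18 fell by at least 2-fold. The 4 arrays of one genotype did not overlap the 4 of the other in 576 of the 614, against 1425 (11.8%) of all genes tested. Median scaling in place of quantile normalization called 374, of which 366 were among the 614. The split then was 69 higher and 305 lower, so the share of rises went from 30.9% to 18.4%.

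The genotypes shared no BeadChip, the slide that carries several arrays. Transgenic arrays lay on BeadChips 1, 1, 3 and 4 and wild-type arrays on BeadChips 2, 2, 2 and 6, so within the control arrays BeadChip and genotype cannot be told apart. A block for the BeadChip can be fitted only through other arrays that link the slides. With the 16 cortex arrays it called 109 genes, 34 of them among the 614, and with all 47 arrays 419, of which 258 were among the 614. Hoxb5, Twist1, Tal1, Barx1, Shox2, Mfge8, Slc7a10 and Plk5, described below, passed in both of these fits. One transgenic array, replicate 2, stood apart in genes of the choroid plexus, the tissue that secretes cerebrospinal fluid. Their mean was 9.04 there against 7.48 to 7.81 on the other 3 transgenic arrays and 7.35 to 7.69 on the wild-type arrays, and 554 genes were called without it.

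**Figure D1:**
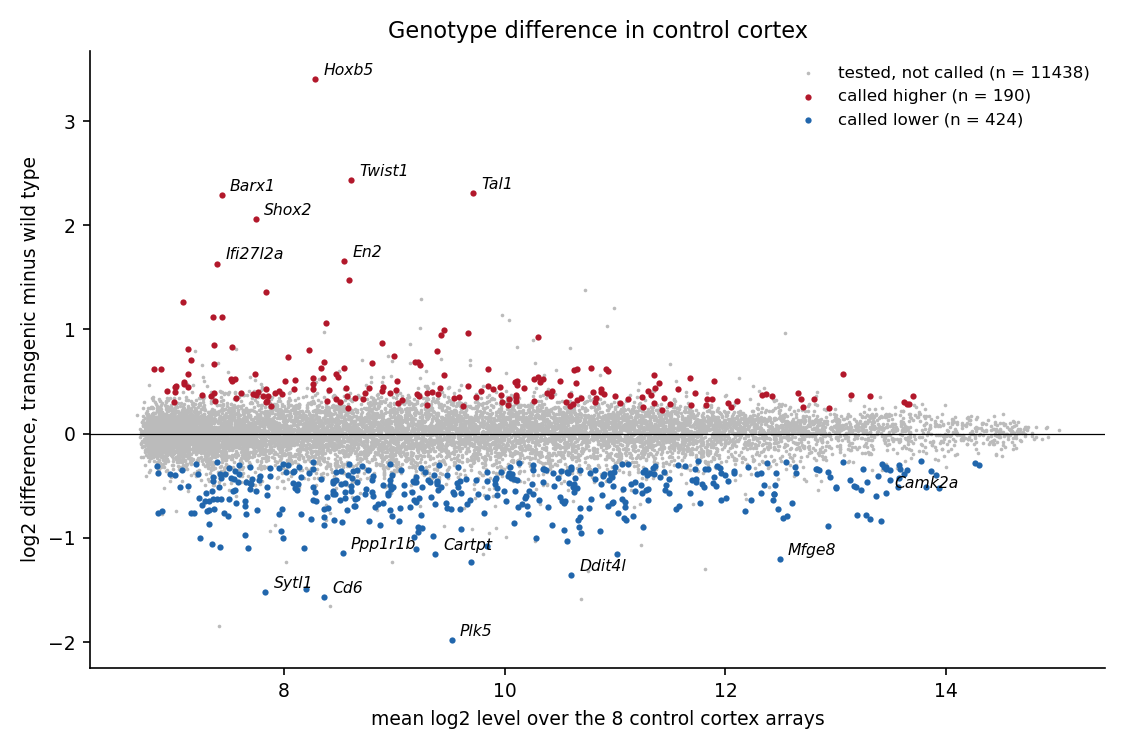
Log2 difference between transgenic and wild-type control cortex for each of the 12052 genes tested (vertical axis) against its mean log2 level on the 8 arrays (horizontal axis). Coloured points mark the 190 genes that rose and the 424 that fell, and the labelled developmental factors with the highest differences lie at low to middle levels.

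Patterning factors give cells of the embryo their position. Hox genes specify segments of hindbrain, spinal cord and body, and other homeobox and basic helix-loop-helix factors shape midbrain, limb, jaw and blood. In adult cortex most of them are kept silent by Polycomb complexes, often at promoters rich in CG dinucleotides. In 4 lists of such factors (Hox, other homeobox, basic helix-loop-helix, and T-box, GATA and forkhead genes) 211 genes were on the arrays, 82 were bright enough to test, 16 rose and 1 fell. The filter uses all 16 cortex arrays, so a gene silent in wild type was tested only where transgenic arrays raised its mean, and these counts lean toward rises for that reason. With no filter 20 of the 211 rose and none fell. In 10 of the 16 the wild-type level was not above array background. Background was set at the 95th percentile of probes for genes that brain does not express, 6.96 to 7.03 on these arrays, and a fold from below it is given as a lower bound.

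Promoter windows of 3 leading factors and of Slc1a2, an astrocyte gene chosen after its values were seen, are shown for their sequence. Each window holds 250 bases before and 50 after 1 start of the gene in RefSeq on GRCm38.p6. Other starts of a gene were not looked at. The letters run 5′ to 3′ on the gene's strand, with every CG in capitals. The windows are Twist1 at chr12:33957421-33957720 (plus strand), Barx1 at chr13:48662786-48663085 (plus), Shox2 at chr3:66981722-66982021 (minus) and Slc1a2 at chr2:102706188-102706487 (plus).
Twist1: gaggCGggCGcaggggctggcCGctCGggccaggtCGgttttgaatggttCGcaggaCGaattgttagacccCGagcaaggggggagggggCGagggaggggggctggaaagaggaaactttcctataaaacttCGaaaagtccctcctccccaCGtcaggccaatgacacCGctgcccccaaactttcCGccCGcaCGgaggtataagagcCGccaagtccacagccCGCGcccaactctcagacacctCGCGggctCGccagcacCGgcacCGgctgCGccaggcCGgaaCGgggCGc
Barx1: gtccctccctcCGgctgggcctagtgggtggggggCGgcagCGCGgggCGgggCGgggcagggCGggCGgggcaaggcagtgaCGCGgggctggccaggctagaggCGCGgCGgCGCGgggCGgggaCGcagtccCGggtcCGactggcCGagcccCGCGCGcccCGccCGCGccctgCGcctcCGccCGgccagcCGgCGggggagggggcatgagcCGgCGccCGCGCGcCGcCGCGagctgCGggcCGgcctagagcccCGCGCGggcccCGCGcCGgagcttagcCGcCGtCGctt
Shox2: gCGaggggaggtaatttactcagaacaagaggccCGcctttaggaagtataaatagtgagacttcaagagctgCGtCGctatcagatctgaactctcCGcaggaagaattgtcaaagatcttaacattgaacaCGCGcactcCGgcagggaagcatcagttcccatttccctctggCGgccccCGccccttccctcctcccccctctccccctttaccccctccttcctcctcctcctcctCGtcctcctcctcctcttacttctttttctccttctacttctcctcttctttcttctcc
Slc1a2: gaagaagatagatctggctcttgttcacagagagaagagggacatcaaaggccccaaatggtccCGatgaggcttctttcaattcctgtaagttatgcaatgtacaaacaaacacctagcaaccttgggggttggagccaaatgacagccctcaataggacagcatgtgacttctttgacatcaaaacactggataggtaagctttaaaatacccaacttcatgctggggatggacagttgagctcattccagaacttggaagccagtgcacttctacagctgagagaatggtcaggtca
The searched motif was CG, which reads the same on both strands. Barx1 held 50 and Twist1 27, and 0.844% and 15.4% of 27025 mouse promoter windows held as many. Shox2 held 11 and Slc1a2 held 1, and 41.9% and 94.2% of windows held as many. These letters describe the windows shown, not every promoter of a gene, and were not set against the array values.

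Hoxb5, a Hox gene of hindbrain and spinal cord, was at 10.01, 9.43, 10.66 and 9.83 on the transgenic arrays and at 6.59, 6.81, 6.41 and 6.51 on the wild-type arrays. Every transgenic array lay far above every wild-type array, and wild type was at background, so the rise was at least 7.97-fold (limma adjusted p = 6.5e-08). Other Hox genes moved less. Hoxa7 (7.73, 7.72, 8.78 and 7.45 against 6.85, 6.62, 6.68 and 7.06) was at least 1.87-fold higher (limma adjusted p = 0.0059), with transgenic replicate 3 highest. Hoxb2 was at least 1.72-fold (adjusted p = 0.0012), Hoxb13 at least 1.11-fold (adjusted p = 0.00015) and Hoxd9, chosen after its values were seen, at least 1.15-fold higher (adjusted p = 0.012). Of 36 Hox genes on the arrays 13 were tested and these 5 rose. With no filter 7 of the 36 passed, and the median over the 36 was 0.06.

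Of 93 other homeobox genes on the arrays 37 were tested, 9 rose and 1 fell, and with no filter 10 rose and none fell, with a median over the 93 of 0.04. Barx1, a factor of jaw and stomach mesenchyme, was at 8.26, 8.17, 9.41 and 8.48 on the transgenic arrays and at 6.29, 6.38, 6.41 and 6.10 on the wild-type arrays. No arrays overlapped, and the rise was at least 3.01-fold (limma adjusted p = 1.2e-05). Shox2, a factor of limb bone and of the cardiac pacemaker, was at 8.60, 8.70, 9.26 and 8.55 against 6.84, 6.60, 6.65 and 6.77, at least 3.45-fold higher (limma adjusted p = 3.2e-06). Transgenic replicate 3 was the highest array for both, as for Hoxb5 and Hoxa7.

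En2, which patterns the border of midbrain and hindbrain, was at 9.32, 9.01, 9.70 and 9.47 on the transgenic arrays and at 8.53, 7.57, 7.35 and 7.42 on the wild-type arrays. Wild-type replicate 1 was far above the other wild-type arrays and still below every transgenic one (3.16-fold higher, limma adjusted p = 0.00017). Irx5, an Iroquois homeobox gene, was at 7.48, 7.65, 7.94 and 7.82 against 6.75, 6.19, 6.45 and 6.44 and at least 1.66-fold higher (adjusted p = 4.2e-05). Dlx2, which directs the birth of inhibitory interneurons, was already well expressed in wild type, at 9.71, 9.98, 9.77 and 9.87, and reached 10.73, 10.73, 10.83 and 10.76 in transgenic cortex (1.91-fold, adjusted p = 0.00017). The transgenic arrays lay closer together for Dlx2 than for the Hox genes.

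The other homeobox genes of this count were chosen after their values were seen. Meis1, a partner of Hox proteins, rose by 0.54 (limma adjusted p = 0.0094) and Msx1 by 0.42 (adjusted p = 0.033). En1 and Irx3, at background in wild type, were at least 1.44-fold and 1.2-fold higher (adjusted p = 0.038 and 0.024). Lhx2, a LIM homeobox factor that specifies cortex itself, was the one that fell, by 0.35 (adjusted p = 0.038). With the BeadChip as a block among cortex arrays, Msx1 was at -0.05 and so changed sign.

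Of 39 developmental basic helix-loop-helix factors on the arrays 16 were tested and 2 rose, and the same number rose with no filter. Twist1, a factor of mesoderm and cranial mesenchyme, was at 9.68, 10.04, 10.10 and 9.49 on the transgenic arrays and at 7.43, 7.25, 7.48 and 7.42 on the wild-type arrays. Both groups were tight and more than 2 log2 units apart (difference 2.43, SE 0.13, limma adjusted p = 3.4e-08). Tal1, a factor of blood stem cells that also acts in midbrain inhibitory neurons, was at 10.52, 10.91, 11.91 and 10.15 against 8.61, 8.68, 8.53 and 8.42 (difference 2.31, adjusted p = 9.2e-05). None of 8 blood cell genes tested passed, and all 8 had a negative difference, with a median of -0.19. None of 16 T-box, GATA and forkhead factors tested passed, and 1 of 43 did with no filter.

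**Figure D2:**
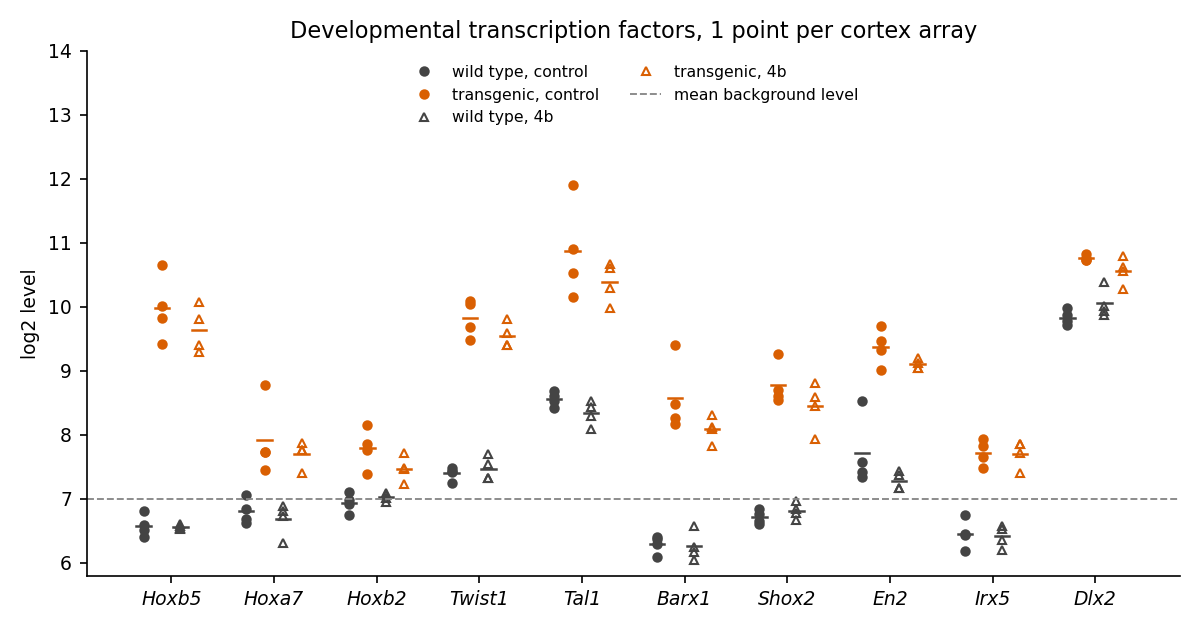
Log2 level of 10 patterning genes on each cortex array, with filled circles for control and open triangles for 4b arrays, transgenic in orange and wild type in grey, bars at group means and a dashed line at the mean array background. In control arrays all transgenic points lie above all wild-type points for each gene shown, and the wild-type points of Hoxb5, Barx1 and Shox2 lie below background.

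Of the chromatin genes, 2 of 25 Polycomb genes rose, both of the complex that silences developmental genes. Bmi1, a subunit of that complex, was at 10.33, 10.10, 10.03 and 10.15 on the transgenic arrays and at 9.35, 9.83, 9.76 and 9.20 on the wild-type arrays (1.53-fold, limma adjusted p = 0.013). Cbx8, a reader of the repressive histone mark, rose 1.31-fold (adjusted p = 0.022). Hdac1, a class I histone deacetylase, was at 9.70, 9.80, 9.48 and 9.54 against 9.30, 9.13, 9.34 and 9.02 (1.35-fold, adjusted p = 0.034). It was the one call among 25 deacetylases and corepressors. Hdac2 and Hdac3 differed by 0.12 and 0.06 and did not pass (adjusted p = 0.56 and 0.80). None of 8 histone genes tested passed.

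Projection neurons send the output of cortex, and those of the upper layers connect cortical areas. Upper-layer genes fell in 7 of 17 tested and rose in none, with a median of -0.34, against 3.52% lower over all genes tested. Lamp5, a membrane protein of upper-layer and some inhibitory neurons, was at 13.05, 13.24, 13.07 and 12.58 on the transgenic arrays and at 13.76, 13.87, 13.86 and 13.83 on the wild-type arrays (limma adjusted p = 0.00023). Wfs1, an endoplasmic reticulum protein, was at 9.99, 9.80, 9.47 and 9.85 against 10.88, 10.99, 10.36 and 10.90 and was 2.00-fold lower (adjusted p = 0.0003). Cartpt, the precursor of the CART peptide, was at 8.71, 8.95, 9.01 and 8.49 against 10.02, 9.92, 10.07 and 9.78 (adjusted p = 0.0046). The groups did not overlap for any of the 3.

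As a summed measure, the mean of the upper-layer list was 8.99, 9.06, 9.04 and 8.89 on the transgenic arrays and 9.33, 9.51, 9.29 and 9.40 on the wild-type arrays, which did not overlap. Tcap, known as a muscle protein, is in that list and was 1.86-fold lower (limma adjusted p = 0.0048). Of deep-layer genes 2 of 23 fell, with a median of -0.14, and the lists were not tested against each other. Ccn2, a secreted matrix protein of the deepest layer, was 1.63-fold lower (adjusted p = 0.00043), and Oprk1, the kappa opioid receptor, 1.44-fold lower (adjusted p = 0.049). With the BeadChip as a block none of the upper-layer genes passed among cortex arrays and 3 passed over all 47 arrays.

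Genes shared by excitatory neurons fell in 4 of 15, with a median of -0.16. Camk2a, the kinase of synaptic plasticity, was at 13.32, 13.21, 12.95 and 13.20 on the transgenic arrays and at 13.59, 13.79, 13.74 and 13.81 on the wild-type arrays (1.48-fold lower, limma adjusted p = 0.0038). A second bright probe of Camk2a differed by -0.62, and another, dim, one by 0.08. Slc17a7 was 1.28-fold lower (adjusted p = 0.02), Nrgn, the calmodulin-binding protein neurogranin, 1.23-fold (adjusted p = 0.021) and Arpp21, a cyclic AMP-regulated phosphoprotein, 1.28-fold (adjusted p = 0.029). A second bright probe of Arpp21 differed by -0.12 (limma unadjusted p = 0.17), and dim ones by 0.01 and 0.06. Arpp21 was not called in 10 alternative fits. All 4 genes are among the bright genes of the arrays, and none passed with the BeadChip as a block among cortex arrays.

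Inhibitory interneuron genes fell in 3 of 23 and rose in 1, the homeobox gene Dlx2, with a median of -0.14. Npy, a peptide of interneurons, was at 12.88, 13.11, 12.84 and 12.98 on the transgenic arrays and at 13.40, 13.61, 13.50 and 13.46 on the wild-type arrays (1.46-fold lower, limma adjusted p = 0.003). Sst, somatostatin, was at 12.82, 13.23, 13.06 and 13.08 against 13.56, 13.47, 13.49 and 13.54 (1.38-fold lower, adjusted p = 0.0068). Both also count among 5 of 21 cortical neuropeptide genes that fell, with Cartpt, Pdyn and Cck. Cck, cholecystokinin, was 1.25-fold lower (adjusted p = 0.026). Pdyn, the precursor of dynorphin, had almost no spread in transgenic cortex, at 8.86, 8.86, 8.85 and 8.85, and was at 9.61, 9.74, 9.48 and 9.71 in wild type (1.72-fold lower, adjusted p = 3e-05).

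Genes best known from the medium spiny neuron of the striatum fell in 3 of 22, and 20 of the 22 differences were negative, with a median of -0.19. Ppp1r1b, a dopamine-regulated phosphatase inhibitor that some cortical neurons also express, was at 7.75, 7.91, 8.17 and 8.01 on the transgenic arrays and at 9.04, 9.07, 9.11 and 9.20 on the wild-type arrays (2.21-fold lower, limma adjusted p = 0.00017). Penk, the enkephalin precursor, was at 7.60, 7.54, 7.51 and 7.52 against 7.76, 7.74, 7.93 and 7.92. Its groups did not overlap, and the difference of -0.29 did not pass (adjusted p = 0.062). The dopamine receptor Drd1 (-0.23, adjusted p = 0.34) and the cannabinoid receptor Cnr1 (-0.02, adjusted p = 0.96) overlapped, and Drd2 was too dim to be tested. Bdnf, the neurotrophin that cortical axons supply to striatum, was at 7.11, 7.05, 6.64 and 7.36 against 7.18, 7.63, 7.35 and 7.43, and these groups overlapped (adjusted p = 0.18). None of 16 neurotrophins and their receptors passed.

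Receptors and channels set how neurons respond. Of 28 glutamate receptor and scaffold genes 3 fell, of 10 GABA and glycine receptor genes 1, and of 23 monoamine, acetylcholine and cannabinoid receptor genes 4, with none rising. Over all genes tested 3.52% fell. Gabrd, the delta subunit of GABA receptors outside the synapse, was at 10.14, 10.63, 10.63 and 10.18 on the transgenic arrays and at 11.46, 11.32, 11.23 and 11.30 on the wild-type arrays (1.91-fold lower, limma adjusted p = 0.0019). Grin2c, an NMDA receptor subunit also made by astrocytes, was at 8.65, 8.63, 8.68 and 8.52 against 9.64, 9.38, 9.46 and 9.37 (1.79-fold lower, adjusted p = 0.00039). Grik5, a kainate receptor subunit, was 1.23-fold lower (adjusted p = 0.031). Arc, the remaining call of the glutamate list and a postsynaptic activity-induced protein, overlapped by one pair of arrays: 11.80, 11.97, 12.10 and 12.59 against 12.56, 12.69, 12.82 and 13.30 (1.65-fold lower, adjusted p = 0.04).

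Among modulatory receptors, Hrh3, the histamine receptor that curbs transmitter release, fell 1.70-fold (limma adjusted p = 0.00091) and Chrm3, a muscarinic receptor, 1.63-fold (adjusted p = 0.0094). The transgenic levels of Chrna5, a nicotinic subunit, and of Drd4, a dopamine receptor, were not above background, and these genes were at least 1.44-fold and 1.25-fold lower (adjusted p = 0.0041 and 0.0043). Of 41 potassium channel genes 6 fell, none rose and 35 differences were negative, with a median of -0.17. Kcnh3, a brain channel of the ether-a-go-go family, was at 10.53, 10.67, 10.67 and 10.47 against 11.16, 11.22, 11.07 and 11.27 (1.51-fold lower, adjusted p = 0.0002). The glial inward rectifier subunit Kcnj16 (1.54-fold, adjusted p = 0.0003) and the leak channels Kcnk4 (1.64-fold, adjusted p = 0.0032) and Kcnk3 (1.37-fold, adjusted p = 0.0044) were lower too.

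Of 20 sodium and calcium channel genes 3 fell, the calcium channel subunits Cacna1h, Cacna2d3 and Cacnb1, with differences of -0.42, -0.35 and -0.51 (limma adjusted p = 0.018, 0.024 and 0.038). A dimmer probe of Cacnb1 had the opposite sign. Calcium signaling genes fell in 7 of 43, rose in none and were negative in 37, with a median of -0.14. Ryr1, a calcium release channel best known in muscle, was at 7.27, 7.11, 7.05 and 7.07 on the transgenic arrays, close to background, and at 8.20, 8.07, 8.31 and 8.30 on the wild-type arrays (2.14-fold lower, adjusted p = 0.00025). Itpka, a kinase of inositol trisphosphate in dendritic spines, was at 12.18, 12.18, 12.24 and 11.99 against 12.91, 12.72, 12.61 and 12.67 (adjusted p = 0.0023). Camkk2, an activator of calmodulin-dependent kinases, was 1.58-fold lower (adjusted p = 0.0093).

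G protein and cyclic nucleotide genes went both ways, with 2 of 42 higher and 6 lower. Gng4, a G protein gamma subunit, was at 11.18, 11.33, 11.37 and 11.06 on the transgenic arrays and at 10.79, 10.62, 10.53 and 10.60 on the wild-type arrays (1.52-fold higher, limma adjusted p = 0.00039). Rgs16, which shortens G protein signals, was 1.45-fold lower (adjusted p = 0.00067), and Dgkz, a diacylglycerol kinase, 1.40-fold lower (adjusted p = 0.0015). Of 35 vesicle and release genes 4 fell. Vamp1, a vesicle fusion protein, was at 10.09, 10.41, 10.34 and 10.17 against 11.00, 11.25, 10.96 and 11.11 (1.77-fold lower, adjusted p = 0.00035). Rph3a, a partner of the vesicle GTPase Rab3, Cplx2, a complexin, and Syt12, a synaptotagmin, were 1.46-fold, 1.30-fold and 1.29-fold lower (adjusted p = 0.0021, 0.036 and 0.04). Immediate early genes, which report recent firing, fell in 2 of 26, Arc and Per1, and 24 of the 26 differences were negative.

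Astrocytes clear glutamate from synapses, make glutamine from it and buffer potassium. Of 40 astrocyte genes tested 23 fell, none rose and 36 differences were negative, with a median of -0.44. Over all genes tested 3.52% fell. The astrocyte falls ran from 0.28 to 1.2 on the log2 scale. The groups did not overlap in 22 of the 23, and in 576 of all 614 called genes. Mfge8, a secreted protein that tags dying cells for uptake, was at 12.04, 11.83, 11.87 and 11.82 on the transgenic arrays and at 13.21, 13.15, 13 and 13.01 on the wild-type arrays (2.30-fold lower, limma adjusted p = 3.6e-07). It had the smallest p among the genes that fell. Slc7a10, a transporter of serine and glycine, was at 8.87, 8.85, 8.79 and 8.94 against 9.81, 9.79, 9.83 and 9.93 (1.97-fold lower, adjusted p = 1.3e-05).

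Genes of glutamate handling were among the falls and were chosen after their values were seen. Slc1a2, the main glutamate transporter, was at 6.96, 6.88, 6.58 and 7.13 on the transgenic arrays, not above background, and at 7.64, 7.86, 7.76 and 7.76 on the wild-type arrays, at least 1.65-fold lower (limma adjusted p = 0.0014). Its probe is dim for so abundant a transcript. Slc1a3, the other astrocyte glutamate transporter, was at 13.44, 13.30, 13.44 and 13.43 against 13.85, 13.81, 13.73 and 13.60 (1.27-fold lower, adjusted p = 0.0066). Glul, glutamine synthetase, was at 9.11, 9.0, 9.27 and 9.58 against 9.87, 9.70, 10.10 and 10.17 (1.65-fold lower, adjusted p = 0.0014). By the rule for named genes, Gstm1, a glutathione transferase, and Ttyh1, a membrane protein of glia, were 1.55-fold and 1.51-fold lower (adjusted p = 0.00045 and 0.00083).

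Astrocyte markers did not all fall. Gfap, the filament protein that rises in reactive astrocytes, was at 9.53, 9.40, 9.96 and 9.44 on the transgenic arrays and at 9.67, 9.39, 9.47 and 9.55 on the wild-type arrays, which overlapped (difference 0.06, limma adjusted p = 0.87). Aqp4, the water channel of astrocyte end-feet, which was chosen after its values were seen, was at 12.28, 12.13, 12.40 and 12.09 against 12.40, 12.22, 12.25 and 12.23 (-0.05, adjusted p = 0.88). The mean of the whole astrocyte list was 10.58, 10.50, 10.51 and 10.66 on the transgenic arrays and 10.93, 10.97, 11.03 and 11.00 on the wild-type arrays. These did not overlap. Without transgenic replicate 2, 18 astrocyte genes fell, and with the BeadChip as a block 4 fell among cortex arrays and 14 over all 47 arrays.

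**Figure D3:**
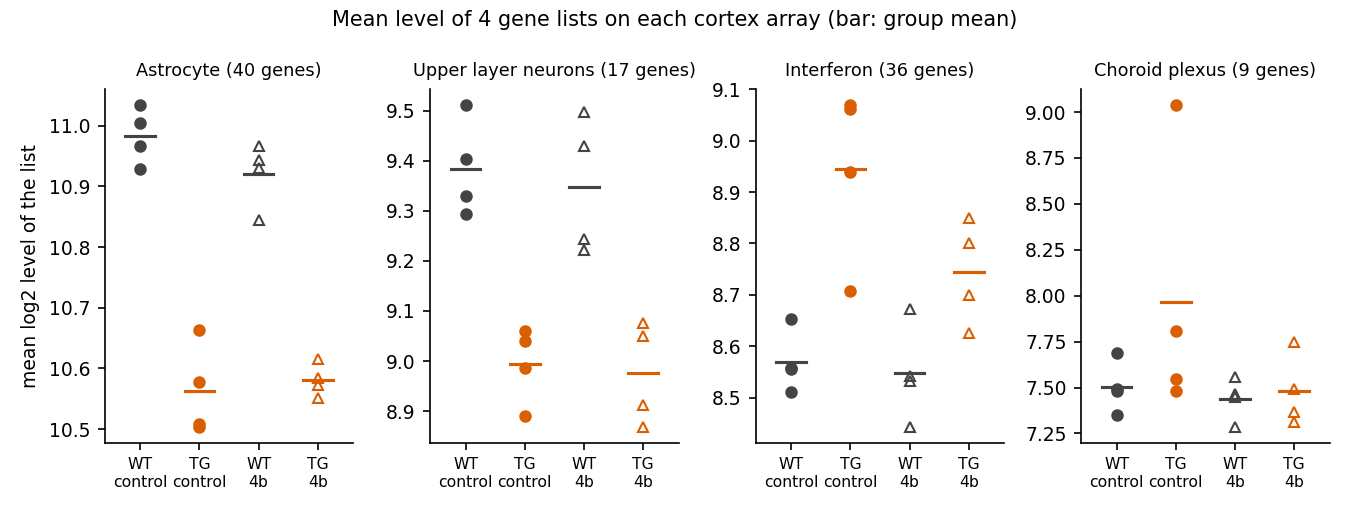
Mean log2 level of 4 gene lists (vertical axes, which do not start at 0) on each cortex array, in 4 groups of genotype and treatment with bars at group means. Among control arrays, astrocyte and upper-layer means are lower and interferon means higher on all 4 transgenic arrays, and transgenic replicate 2 stands apart in choroid plexus genes at 9.04.

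Other cell types did not pass. None of 28 oligodendrocyte and myelin genes (median -0.08), 11 oligodendrocyte precursor genes (median -0.03), 25 microglia and complement genes (median -0.03), 26 endothelial and mural genes (median -0.07) and 14 meningeal genes (median -0.08) was called. Aif1, the microglial marker Iba1, was at 8.77, 9.65, 9.53 and 8.29 on the transgenic arrays and at 9.41, 9.39, 9.52 and 9.06 on the wild-type arrays, so the transgenic arrays spread wider and the groups overlapped (limma adjusted p = 0.63). The 9 choroid plexus genes had a median of 0.40, the highest of all the lists, and none passed. Without transgenic replicate 2 that median was 0.08.

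**Figure D4:**
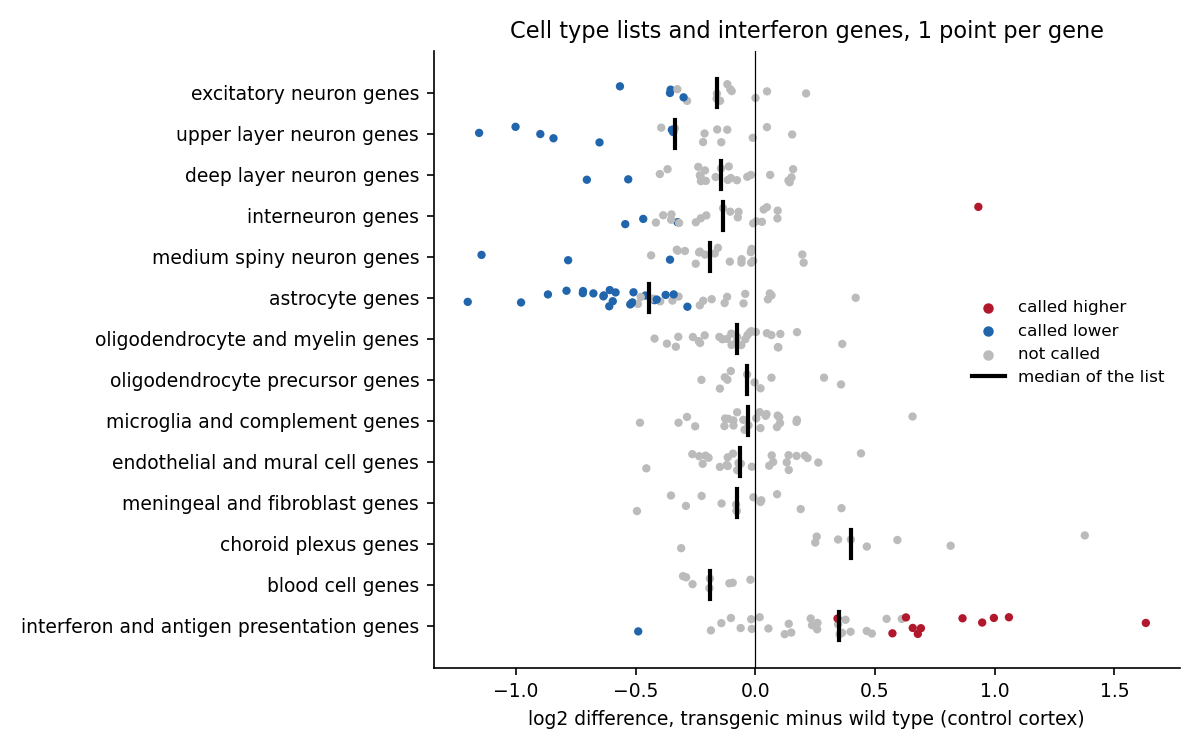
Log2 difference between transgenic and wild-type control cortex (horizontal axis) for each tested member of 14 gene lists (vertical axis), with a bar at the list median, called genes in red or blue and the others in grey. The astrocyte median (-0.44) and the upper-layer median (-0.34) lie below and the interferon median (0.35) above the median of all genes tested (0.009).

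Interferons switch on genes that restrict viruses and present antigens. Of 36 such genes tested 11 rose and 1 fell, with a median of 0.35, against 1.58% higher and 3.52% lower over all genes tested. The groups did not overlap in 9 of the 11, and in 576 of all 614 called genes. Ifi27l2a, an interferon-induced membrane protein, was at 7.84, 8.51, 8.55 and 7.95 on the transgenic arrays and at 7.11, 6.10, 6.27 and 6.84 on the wild-type arrays, at least 2.27-fold higher (limma adjusted p = 0.003). Rsad2, the antiviral enzyme viperin, was at 8.72, 8.52, 8.98 and 9.46 against 7.93, 7.96, 7.62 and 7.91 (2.08-fold, adjusted p = 0.0066). Samd9l, an antiviral factor that was not in the list and is among the greatest rises, was at 9.99, 10.03, 9.99 and 10.59 against 9.32, 9.25, 9.09 and 9.09 (1.95-fold, adjusted p = 0.0037).

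Transgenic replicate 1 was the least changed array for several of these genes. Gbp3, a guanylate-binding protein, was at 9.35, 10.20, 10.09 and 10.15 on the transgenic arrays and at 9.41, 8.77, 8.99 and 8.64 on the wild-type arrays, so replicate 1 overlapped wild type (1.99-fold, limma adjusted p = 0.0041). Bst2, the virus-tethering protein, was at 9.25, 10.17, 9.98 and 10.17 against 9.10, 8.74, 9.04 and 8.91 (1.93-fold, adjusted p = 0.0059). Irgm2, an immunity-related GTPase, rose 1.55-fold (adjusted p = 0.0032) and Ifit3 1.82-fold (adjusted p = 0.03). The list mean was 8.71, 8.94, 9.07 and 9.06 on the transgenic arrays and 8.65, 8.51, 8.56 and 8.56 on the wild-type arrays, with transgenic replicate 1 just above wild-type replicate 1. Ly6e, chosen after its values were seen, was the gene that fell (1.40-fold, adjusted p = 0.008). With the BeadChip as a block none of the list passed among cortex arrays, and 13 of it rose over all 47 arrays.

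Lipid and energy genes fell in part. Of 20 cholesterol synthesis genes 4 fell and 16 differences were negative, with a median of -0.19. Mvd, which makes isopentenyl diphosphate, was at 8.16, 8.35, 8.37 and 8.21 on the transgenic arrays and at 8.73, 8.73, 8.89 and 8.97 on the wild-type arrays (1.47-fold lower, limma adjusted p = 0.002). The late enzymes Dhcr7 and Nsdhl were 1.34-fold and 1.38-fold lower (adjusted p = 0.0047 and 0.019), and Stard4, a cholesterol carrier, 1.57-fold (adjusted p = 0.0069). Dimmer probes of Nsdhl differed by -0.28 and -0.0035. Of 25 fatty acid enzymes 3 fell. Acss1, which makes mitochondrial acetyl-CoA from acetate, was at 10.07, 10.35, 10.29 and 10.09 against 10.88, 10.78, 10.80 and 11.01 (1.59-fold, adjusted p = 0.00034). The fatty acid desaturases Fads2 and Fads1 were 1.59-fold and 1.32-fold lower (adjusted p = 0.00061 and 0.011).

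Of 30 glycolysis and creatine genes 5 fell, with a median of -0.03. Pgam2, the phosphoglycerate mutase of muscle, was 1.93-fold lower (limma adjusted p = 0.0037). Aldoc, an aldolase of astrocytes, Pygb, the brain glycogen phosphorylase, and Ckmt1, a mitochondrial creatine kinase, were 1.44-fold, 1.24-fold and 1.22-fold lower (adjusted p = 0.004, 0.0066 and 0.017). None of 58 respiratory chain subunits passed, and 28 were positive and 30 negative. None of 29 proteasome subunits passed, although 27 had a positive difference, with a median of 0.12. Among 35 chaperones Cct3, a subunit of the cytosolic chaperonin, rose (1.27-fold, adjusted p = 0.038), and none of 24 autophagy and lysosome genes passed.

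Genes of RNA and transcription had few calls. Celf5, an RNA-binding protein of neurons, was at 8.0, 7.68, 8.09 and 8.22 on the transgenic arrays and at 6.80, 7.03, 6.83 and 6.87 on the wild-type arrays, where it was not above background (at least 2.00-fold higher, limma adjusted p = 0.0003). It was the one call among 29 RNA-binding and splicing factors. Fbl, the nucleolar methyltransferase fibrillarin, rose 1.45-fold (adjusted p = 0.0023), the one call of 34 nucleolar genes. Hexim1, which holds back transcription elongation, rose 1.53-fold (adjusted p = 0.024), the one call of 20 elongation genes. Crebbp, an acetyltransferase that binds mutant huntingtin, rose 1.31-fold (adjusted p = 0.045) and was not called in 16 of 22 alternative fits. It was the one call of 17 genes in the polyglutamine disease list (5.88%, against 5.09% of all genes tested).

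Clock and glucocorticoid genes fell in 4 of 34 and rose in 1. Dbp, a clock-driven factor, was at 12.39, 12.69, 13.26 and 12.88 on the transgenic arrays and at 13.67, 13.56, 13.59 and 13.51 on the wild-type arrays (1.72-fold lower, limma adjusted p = 0.003). Per1 and Cry2, parts of the clock's inhibitory arm, were 1.56-fold and 1.24-fold lower (adjusted p = 0.0061 and 0.033), and the clock kinase Csnk1d, chosen after its values were seen, was 1.27-fold higher (adjusted p = 0.048). The hour of dissection was not given in the labels, and its part in these differences was not tested. Ddit4l, an inhibitor of mTOR signaling, was at 10.14, 9.99, 10.24 and 9.32 against 11.15, 11.77, 11.05 and 11.15 (2.56-fold lower, adjusted p = 0.0013).

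Plk5, a polo-like kinase expressed in neurons and glia, was at 8.01, 8.29, 9.22 and 8.60 on the transgenic arrays and at 10.42, 10.75, 10.43 and 10.43 on the wild-type arrays. It had the greatest fall of the genes tested (difference -1.98, SE 0.18, limma adjusted p = 1.3e-05) and was one of 2 calls among 25 cell cycle inhibitors and p53 targets. The other was Cdkn2b, an inhibitor of cyclin-dependent kinases, which rose from 8.08, 7.96, 8.11 and 8.06 to 8.48, 8.43, 8.45 and 8.54 (1.34-fold, adjusted p = 0.0051). Of 43 genes of growth factor signaling 4 fell. Fst, follistatin, was at least 1.5-fold lower (adjusted p = 0.00083) and Wnt7b 1.51-fold lower (adjusted p = 0.001). Hey1, a Notch target, and Igfbp5, an insulin-like growth factor binding protein, were 1.27-fold and 1.75-fold lower (adjusted p = 0.0042 and 0.0061).

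The remaining falls of at least 2-fold under the naming rule belonged to no single pathway. Cd6, a lymphocyte receptor, was at 7.46, 8.25, 7.77 and 6.82 on the transgenic arrays and at 9.05, 9.37, 9.51 and 8.65 on the wild-type arrays (limma adjusted p = 0.037). Sytl1, a synaptotagmin-like trafficking protein, was at 6.94, 6.84, 7.56 and 6.94 against 9.30, 9.55, 7.67 and 7.86 (limma adjusted p = 0.021). Its wild-type arrays split by sex, with the females at 9.30 and 9.55 and the males, at 7.67 and 7.86, much nearer the transgenic arrays. In the main fit no gene passed the test between the sexes. Etnppl, a phosphoethanolamine lyase of astrocytes, was at 9.26, 8.31, 8.80 and 9.93 against 10.08, 10.20, 10.56 and 10.41 (adjusted p = 0.018). All 3 spread more between replicates than the genes that follow.

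Entpd2, an ectonucleotidase that breaks down extracellular ATP, was at 8.69, 8.41, 8.84 and 8.62 against 9.80, 9.80, 9.77 and 9.61 in wild type (2.15-fold lower, limma adjusted p = 0.00017). Alox12b, a lipoxygenase known from skin, was at 7.66, 7.56, 7.5 and 7.79 against 8.70, 8.83, 8.67 and 8.72 (2.15-fold, adjusted p = 1.3e-05). Ccdc3, a secreted protein, was at 10.27, 10.31, 10.59 and 10.60 against 11.58, 11.58, 11.34 and 11.88 (2.22-fold, adjusted p = 0.00018). Each gap was wider than the spread within either group. Ier5l, a relative of an immediate early gene (2.11-fold, adjusted p = 0.00018), Catsperz, a sperm calcium channel subunit (2.04-fold, adjusted p = 0.00018), and Mslnl, a mesothelin relative (at least 1.91-fold, adjusted p = 0.0014), were lower too.

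A second set of 8 cortex arrays, from mice of both genotypes given 4b, shares no array with the control set. Of the same 12052 genes 665 (5.52%) passed there, 254 (2.11%) higher and 411 (3.41%) lower (limma, Benjamini-Hochberg). Of the 614 genes of the control comparison, 592 (96.4%) had the same sign in the 4b arrays, against 64.7% of all genes tested. In both comparisons 299 genes were called, 48.7% of the control calls and 45.0% of the 4b calls, with 63 higher and 236 lower in both and none in opposite directions. The difference between the 2 genotype differences was tested as an interaction and passed for none of the 12052 genes by limma, with 791 (6.56%) at an unadjusted p under 0.05. With the BeadChip as a block among cortex arrays it passed for 16. A call in one set and not in the other does not by itself show that the genotype difference changed with 4b. The genes were chosen for their size in the control arrays, and their median went from 0.41 to 0.24 for rises and from -0.51 to -0.41 for falls. The filter and the estimate of the spread used the arrays of both sets.

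By role, 13 of the 16 rising patterning genes passed in the 4b arrays as well and all 16 were positive. Over all calls 63 of 190 rises and 236 of 424 falls passed there. A gene silent in wild type was tested only where transgenic arrays, 4b ones included, raised its mean. The patterning counts lean toward rises in both sets for that reason. In the 4b arrays Hoxb5, again with wild type at background, passed (limma adjusted p = 3.1e-07), and Twist1 differed by 2.08 (adjusted p = 3.1e-07), Tal1 by 2.05 (adjusted p = 0.00023), En2 by 1.82 (adjusted p = 8.1e-05) and Meis1 by 0.90 (adjusted p = 0.00021). Of the 23 astrocyte genes 19 fell there too, Mfge8 by 1.03 (adjusted p = 3.7e-06), while Slc1a2 at -0.42 did not pass (adjusted p = 0.085). Of the 11 interferon genes 2 rose, Ifi27l2a by a fitted 1.11 and Irgm1, an immunity-related GTPase chosen after its values were seen, by 0.50 (adjusted p = 0.034 and 0.032). In control arrays Irgm1 had risen by 0.66 (adjusted p = 0.006), with another of its probes of opposite sign. Samd9l rose by 0.73 (adjusted p = 0.021), while Gbp3 at 0.24, Rsad2 at 0.43 and Ifit3 at 0.06 did not pass (adjusted p = 0.47, 0.25 and 0.91). Hdac1 differed by 0.15 and Hdac2 by 0.38 in the 4b arrays (adjusted p = 0.48 and 0.026).

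**Figure D5:**
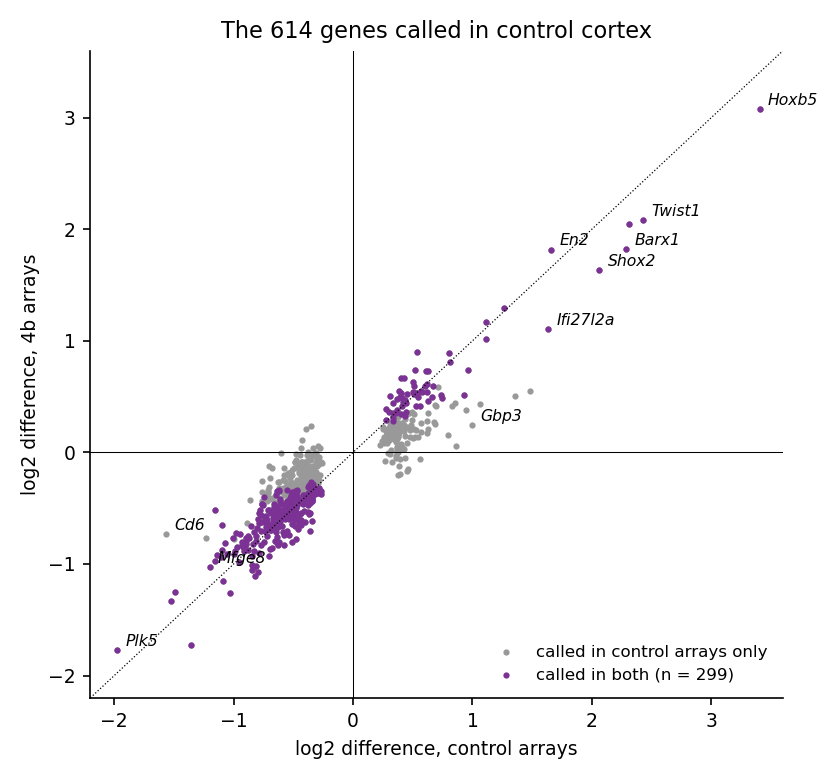
Log2 difference between transgenic and wild-type cortex in 4b arrays (vertical axis) against that in control arrays (horizontal axis) for the 614 genes called in control cortex, with genes called in both in purple and the line of equal differences dotted. Twist1 (2.43 and 2.08) and Plk5 (-1.98 and -1.77) lie near the line, differences from levels below background are fitted values and not sizes, and 592 of 614 keep their sign.

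The genotype difference in cortex was also set against that in the control arrays of striatum and cerebellum, the latter with 3 wild-type arrays. It differed from striatum for 25 of 11658 genes (0.214%) and from cerebellum for 43 of 11505 (0.374%), with 566 and 1060 at an unadjusted p under 0.05 (limma, Benjamini-Hochberg). Whether the regions of a mouse were paired is not given, and these p-values treat all arrays as separate mice. Twist1 stood out from both regions. Its striatal levels were 7.52, 7.46, 7.5 and 7.61 in transgenic and 7.18, 7.35, 7.26 and 7.45 in wild-type mice, so the cortical difference was greater by 2.22 (adjusted p = 4.3e-12), and by 2.23 than in cerebellum (adjusted p = 1.3e-11). Tal1 was greater in cortex by 2.21 than in striatum and by 3.18 than in cerebellum (limma adjusted p = 0.0036 and 1.1e-05). Cerebellar Tal1 was at 8.6, 7.83, 8.07 and 8.05 on the transgenic arrays and at 8.52, 8.23 and 10.26 on the wild-type arrays. The 3.18 rests in part on the array at 10.26 and was 2.55 to 3.56 when arrays were left out in turn. Against striatum the Tal1 call was lost with the BeadChip as a block (adjusted p = 0.055).

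En2 and Irx5 are expressed in normal cerebellum, and neither passed between the genotypes there (limma adjusted p = 0.91 and 0.22). Cerebellar En2 was at 12.63, 13.14, 13.29 and 13.18 on the transgenic arrays and at 12.76, 13.27 and 13.40 on the wild-type arrays, and Irx5 at 9.67, 9.65, 9.85 and 9.69 against 10.09, 9.85 and 10.07. The cortical difference was greater by 1.74 for En2 and by 1.56 for Irx5 (limma adjusted p = 0.0067 and 1.1e-05), and with the BeadChip as a block that of En2 did not pass (adjusted p = 0.19). In striatum both were higher on every transgenic array. Irx5 was at 8.38, 8.26, 8.9 and 8.22 against 6.77, 7.37, 7.03 and 7.1 there and passed (adjusted p = 0.00023), and En2 was at 8.27, 8.52, 8.41 and 8.18 against 7.48, 7.98, 7.81 and 7.91 and did not (adjusted p = 0.30). For Hoxb5 one wild-type cerebellar array was at 12.93 and the others at 6.61 and 6.76. The fitted difference between the regions of 5.04 (adjusted p = 0.002) rests in part on it and on wild-type cortex at background, was 2.96 to 6.12 when arrays were left out in turn, and did not pass with the BeadChip as a block (adjusted p = 0.096). Of the 16 rising patterning genes 13 were tested in striatum, where 2 rose, Irx5 and Dlx2, and 12 in cerebellum, where none rose. Over all genes 1.44% rose in striatum and 0.332% in cerebellum.

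Among genes that fell in cortex, Mfge8 was at 11.69, 10.99, 11.34 and 11.38 in transgenic and at 11.49, 11.41 and 11.37 in wild-type cerebellum, and its cortical difference was lower by 1.13 (limma adjusted p = 1.4e-05). The astrocyte list had a median of -0.31 in striatum, where 8 of the 23 genes also fell, and of -0.19 in cerebellum, where none of the 23 did, against 0.01 and 0.03 for all genes tested there. Over all genes 2.34% fell in striatum and 0.357% in cerebellum. The interferon list had medians of 0.41 and 0.33, and 5 and 2 of the 11 genes also rose. These list counts were not tested for a difference between regions.

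Within cortex the genotype difference was set between females and males, with 2 arrays of each genotype per sex. None of the 12052 genes passed by limma, and 805 had an unadjusted p under 0.05.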

How the data were processed

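The deposited intensity values, 24613 probes on each of 47 arrays, had not been normalized between arrays, and the arrays held biotin-labelled total RNA extracted with Trizol per the labels. The authors processed the arrays with BeadStudio (per the submitters' processing notes; version not given in the sources used here). Log2 values that the authors deposited were read for their array medians, which lay between 7.254 and 7.256. The intensity table also held 1 column that could not be tied to a sample, which was left out.

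Intensities were background-corrected (normexp, offset 50), quantile-normalized over the 47 arrays and put on the log2 scale with limma 3.58.1 under R 4.3.3. The platform annotation gave 1 symbol for 20984 probes, several for 1 and none for 3628, and 20968 symbols were updated by gene ID from a RefSeq table of GRCm38.p6. The probe with the highest mean stood for each of 3728 genes with several probes, which left 19596. Of 112 called genes named here 23 had several probes, and 5 of these had one of opposite sign. Genes were tested where their mean over the 16 cortex arrays was above the 40th percentile, in 1 limma fit (lmFit and eBayes) of those arrays in 4 groups, two-sided, with a call at a Benjamini-Hochberg adjusted p under 0.05. The fit was tested on simulated arrays with known changes. The comparisons between regions used all 47 arrays. Deviations of same-numbered replicates from their group means correlated at -0.23, 0.03, -0.27 and 0.29. The labels do not say whether the numbers pair the samples, and with 4 arrays a group these values cannot exclude it.

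The genes compared, the 46 gene lists (1504 of 1740 entries matched) and the tests were chosen with earlier results of these data known. The naming rule took the 15 greatest rises and 15 greatest falls whose groups do not overlap. From each list it took the 4 members of smallest p. It added a fixed set of genes, among them Htt, Bdnf, Gfap, Hdac1, Plk5 and Celf5. The 5 genes with the smallest p of each interaction were added too, and the text gives a part of all these. Promoter windows were found for 8285 of the genes tested, and none was found for Hoxb5, En2 and Ifi27l2a. Alternatives covered background, normalization, the filter, probes, the intensity trend, array weights, the arrays fitted, BeadChip, sex, replicate number and single arrays left out. Plots used matplotlib 3.10.9 (Python 3.11.15).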

Additional observations from a re-analysis of the deposited data

Results flagged for a closer look

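Of 346 groups of 4 arrays, each for a named gene or a list mean in control cortex, 18 held 1 array whose gap to the next, as a share of the group's range, passed Dixon's limit. Chance gives about 1 in 20 such groups, close to the share found here. Among wild-type arrays the shares were 0.862 for Msx1, 0.892 for Cck, 0.831 for Aqp4, 0.869 for Rsad2, 0.962 for Plk5, 0.861 for Ddit4l and 0.84 for Cry2. For Plk5 the array apart was wild-type replicate 2 at 10.75, with the others at 10.42 to 10.43, and for Cck replicate 1 at 13.39. Among transgenic arrays they were 0.972 for Ttyh1, 0.903 for Slc1a3, 0.868 for Gbp3, 0.927 for Samd9l, 0.837 for Igfbp5, 0.863 for Sytl1 and 0.853 for Pde10a. Ttyh1 was at 13.23 on transgenic replicate 4 and at 13.01 to 13.02 on the other arrays, and Samd9l at 10.59 on replicate 4 and at 9.99 to 10.03 on the others. Gbp3 was low on transgenic replicate 1, at 9.35. Of the list means, Hox genes (0.848) and sodium and calcium channels (0.835) had such an array in wild type, and immediate early genes (0.907) and cell cycle inhibitors (0.831) in transgenic cortex.

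The genotype difference in cortex itself differed from that in another region, by limma's interaction test over all 47 arrays, for these named genes. It was greater than in cerebellum for Hoxb5 by 5.04, Tal1 by 3.18, Twist1 by 2.23, Shox2 by 2.01, En2 by 1.74 and Irx5 by 1.56, and greater than in striatum for Twist1 by 2.22, Tal1 by 2.21, Pde10a by 1.14 and Cnr1 by 0.95. It was lower than in cerebellum for Cdkn2b (-1.29), Mvd (-1.25), Alox12b (-1.22), Mfge8 (-1.13), Gabrd (-1.13) and Ier5l (-1.0), and lower than in striatum for Wt1 (-2.16), Plk5 (-0.96) and Alox12b (-0.88). For Wt1, Pde10a and Cnr1 the cortical difference did not pass, and the region that changed was striatum: Wt1 was at 9.12, 9.16, 9.82 and 9.13 there in transgenic and at 6.63, 7.33, 6.73 and 6.54 in wild-type mice. Cdkn2b did not fall in cortex but rose, and its rise was greater in cerebellum. Its cerebellar levels were 9.81, 9.9, 10.06 and 9.78 in transgenic and 7.9, 8.35 and 8.24 in wild-type mice. Leaving out 1 array at a time kept the call of Shox2 in 2 of 15 fits, of Cnr1 in 6 of 16, of Ier5l in 7 of 15 and of Plk5 in 10 of 16. Mvd kept its call in 14 of 15. With the BeadChip as a block over all arrays the calls against cerebellum of Hoxb5, Shox2, En2, Gabrd, Mvd and Ier5l were lost (limma adjusted p = 0.0956, 0.19, 0.187, 0.247, 0.128 and 0.131), and those against striatum of Tal1, Cnr1 and Plk5 (0.0551, 0.137 and 0.0574). Array weights ended the call of Shox2 as well (0.133). The value of Tal1 against cerebellum was 2.55 to 3.56 with arrays left out in turn, and 1 wild-type cerebellar array stood apart at 10.26. Alox12b was near background in striatum and cerebellum in both genotypes, where a fall could hardly be measured, and wild-type Hoxb5, Shox2 and Irx5 were at background in cortex, so these values are fitted and give no exact size.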

How the results depend on the processing

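The 614 calls of control cortex became 374 with median scaling, 381 with all 47 arrays in the fit, 109 with the BeadChip as a fixed block among cortex arrays and 376 to 554 when arrays were left out in turn; without transgenic replicate 1 there were 379, without transgenic replicate 4 376 and without wild-type replicate 4 379. The 4b count of 665 became 369 with median scaling, 192 with the cortex BeadChip block and 393 to 664 with arrays left out. The interaction of genotype and treatment gave 16 with that block and 0 in all other settings. For cortex against striatum, in place of 25, median scaling gave 10, no filter 39, a stricter filter 13, array weights 69, the BeadChip block 12 and arrays left out 16 to 24. For cortex against cerebellum, in place of 43, array weights gave 28, the BeadChip block 19 and arrays left out 27 to 132, with 132 without wild-type cerebellum 2, 72 without wild-type cerebellum 1 and 27 without transgenic cortex 1. Between the sexes 1 gene passed without background correction, 2 with median scaling and 1 without the filter. The cause of these shifts was not tested. The replicate number as a block called 576 genes in control cortex, 533 of them among the 614, although the labels do not say that the numbers pair the samples.

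Of 112 named genes that passed, 13 did so with the same sign in every one of 22 alternatives that tested them (Barx1 and Shox2 were not tested under the stricter filter): Acss1, Barx1, Ccdc3, Glul, Hoxb5, Ier5l, Mfge8, Plk5, Shox2, Slc7a10, Tal1, Ttyh1 and Twist1. The calls lost most often were those of Crebbp (in 16 alternatives), Csnk1d (15), Oprk1 (14) and Lhx2 (13). Fixed blocks for the BeadChip kept 15 of the 112 among cortex arrays and 67 over all 47 arrays, and median scaling kept 95. Msx1 changed sign, to -0.0451, with the cortex block. Of genes that had not passed, Hdac2 turned to -0.0683 and -0.0804 with the blocks over cortex and over all arrays, Aif1 to 0.17 with the former and Gfap to -0.0033 with the latter and -0.0641 to 0.12 with arrays left out. Cnr1 turned to 0.0038 with array weights, 0.0748 with averaged probes, 0.25 with the cortex block and -0.10 to 0.10 with arrays left out. Supt16 turned to 0.0329 with averaged probes, 2.49 and 1.51 with the blocks and -0.61 to 0.68 with arrays left out. No depth is given for arrays; for genes near background a difference has only a bound.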

Other observations

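Supt16, a subunit of the FACT histone chaperone, and Ttc5, a cofactor of p53, are named as among the 5 genes with the smallest p of the test between the sexes, which neither passed (limma adjusted p = 0.13 and 0.27). Supt16 was low in transgenic females and wild-type males and high in the others, with 2 arrays each. It was at 8.13, 8.16, 10.96 and 10.87 on the transgenic arrays and at 11.69, 10.82, 7.90 and 7.83 on the wild-type arrays. Over all 16 cortex arrays 6 lay at 8.16 or below and 10 at 10.72 or above, with none between. Ttc5 was at 7.38, 7.61, 8.02 and 7.78 on the transgenic arrays and at 7.83, 7.78, 7.26 and 7.42 on the wild-type arrays, with the same arrays high and low among these 8. Over all 16 cortex arrays the widest gap of Ttc5 was narrow, from 7.62 to 7.78, with 7 arrays below it and 9 above.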
